A study of Mus musculus with 13 samples.

Results

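Nodes of Ranvier are the unmyelinated gaps between adjoining Schwann cell (SC) segments, and paranodes are the flanking zones where the myelin loops attach to the axon. The genes described here are 9 node and paranode genes, Nfasc, Gldn, Nrcam, Cntn1, Cntnap1, Ank2, Ank3, Ezr, and Dag1, chosen by name for their adhesion and scaffold roles at these sites. Earlier results of these data were known when the genes were chosen. All 9 were found, each once, among the 40787 genes of the count table. Sciatic nerves were profiled by RNA sequencing at 5 d post crush (dpc), the whole nerve distal to the crush being used after removal of the epineurium. Controls were C57BL/6 mice with both Rptor alleles floxed and without Cre, and they gave 3 injured and 3 contralateral nerves. RaptorKO mice carried the same floxed alleles together with a tamoxifen-inducible Cre that acts in SCs, and they gave 3 injured and 4 contralateral nerves. Both genotypes received tamoxifen at 2 months of age, and the crush followed 2 months later. Other cells of the nerve keep Rptor, which encodes an essential subunit of mTOR complex 1.

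At the node, gliomedin (Gldn) on SC microvilli and NrCAM (Nrcam) bind a long form of neurofascin (Nfasc) on the axon, and ankyrin G (Ank3) ties the axonal complex and the sodium channels to the cytoskeleton. At the paranode, contactin (Cntn1) and Caspr (Cntnap1) on the axon bind a shorter neurofascin form on the glial loops. Ankyrin B (Ank2) is the paranodal relative of ankyrin G, with both ankyrins also made by glia. Ezrin (Ezr) links the microvillar membrane to actin, and dystroglycan (Dag1) joins the SC surface to the basal lamina and to the nodal microvilli. Most transcripts of an axon lie in its cell body outside the nerve, and a gene total does not separate the 2 neurofascin forms.

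Library totals ranged from 8200458 to 13581775 estimated counts. Rptor, the targeted gene, was measured at 43.6 to 52.2 CPM (counts per 1000000, TMM-scaled) in control contralateral nerves and at 22.1 to 27.8 CPM in RaptorKO contralateral nerves. In injured nerves it was at 35.0 to 49.5 CPM in controls and at 23.3 to 28.8 CPM in RaptorKO mice, so that the genotypes did not overlap on either side. The remaining Rptor RNA can include that of cells without Cre and RNA that lacks only the floxed part, but its sources were not tested. The labelled tissue was checked by its markers, and all 6 SC markers were detected in every group. Of the 8 neuronal genes listed, Isl1 and Scn10a had at most 1 count in any library. Others were present: Stmn2 had 71 to 757 counts per library. In contralateral nerves Snap25 had 73 to 127 counts and Prph 64 to 153. One control number, replicate 3, was high in Xist and near 0 in Y-linked counts on both sides, unlike the other 11 libraries.

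The start-site windows of 4 members are shown because the results turn on them. Nfasc is the gene whose injury response differed between genotypes, Ezr and Nrcam are the 2 members that rose after injury, and Gldn is the other member that shares a motif with Ezr. Each window holds the 250 bases before and the 50 bases after a RefSeq start (build GRCm38.p6), written 5′ to 3′ on the strand of the gene. Nfasc has 2 such starts, and the count table adds their transcripts together. The annotated Nfasc gene reaches further upstream than both, to base 132741797, and that end was not searched. Capitals mark matches to the AP-1 motif TGANTCA (a palindrome), the SOX motif ACAANG, or the EGR motif GCGNGGGCG, each searched on both strands. These motifs do not overlap each other in any of the 4 genes.
Nfasc, upstream start, chr1:132707277-132707576, minus strand: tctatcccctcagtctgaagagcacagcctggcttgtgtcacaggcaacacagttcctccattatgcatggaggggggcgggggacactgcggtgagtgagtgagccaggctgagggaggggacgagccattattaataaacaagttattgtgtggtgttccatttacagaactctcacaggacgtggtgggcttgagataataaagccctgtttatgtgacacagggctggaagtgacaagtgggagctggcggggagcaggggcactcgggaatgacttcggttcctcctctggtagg
Nfasc, downstream start, chr1:132642809-132643108, minus strand: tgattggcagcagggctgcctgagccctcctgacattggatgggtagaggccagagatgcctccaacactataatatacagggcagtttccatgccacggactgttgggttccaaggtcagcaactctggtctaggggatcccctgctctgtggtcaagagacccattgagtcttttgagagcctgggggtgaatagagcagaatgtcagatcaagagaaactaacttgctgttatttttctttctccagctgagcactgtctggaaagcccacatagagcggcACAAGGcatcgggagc
Ezr, chr17:6782731-6783030, minus strand: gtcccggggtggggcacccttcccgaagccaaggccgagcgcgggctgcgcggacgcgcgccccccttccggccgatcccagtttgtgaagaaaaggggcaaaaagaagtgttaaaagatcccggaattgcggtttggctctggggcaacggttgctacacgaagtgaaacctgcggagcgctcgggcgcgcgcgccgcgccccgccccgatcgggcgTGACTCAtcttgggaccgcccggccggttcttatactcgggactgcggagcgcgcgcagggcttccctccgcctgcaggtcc
Nrcam, chr12:44328635-44328934, plus strand: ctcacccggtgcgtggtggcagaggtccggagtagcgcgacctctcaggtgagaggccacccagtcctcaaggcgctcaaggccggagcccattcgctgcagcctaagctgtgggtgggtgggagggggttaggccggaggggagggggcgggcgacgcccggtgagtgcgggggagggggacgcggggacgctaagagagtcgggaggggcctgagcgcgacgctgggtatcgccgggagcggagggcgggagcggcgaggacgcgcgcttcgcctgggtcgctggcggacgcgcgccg
Gldn, chr9:54286236-54286535, plus strand: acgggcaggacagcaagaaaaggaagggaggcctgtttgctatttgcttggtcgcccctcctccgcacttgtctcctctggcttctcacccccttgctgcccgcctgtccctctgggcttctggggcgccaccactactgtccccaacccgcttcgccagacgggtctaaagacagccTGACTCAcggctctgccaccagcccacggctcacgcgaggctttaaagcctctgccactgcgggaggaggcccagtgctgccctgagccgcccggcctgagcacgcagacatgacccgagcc
The AP-1 motif was held by 7.81% of all 32851 windows, the SOX motif by 41.2%, and the EGR motif by 5.55%. Among the 14 windows of the members (all but Cntnap1 and Ank3), 2 held the AP-1 motif, 6 the SOX motif, and 3 the EGR motif. The windows with the SOX motif belong to Nfasc, Cntn1, and Ank2, and those with the EGR motif to Ank2 and Dag1. The 2 Dag1 windows overlap and share 1 EGR match, so windows of 1 gene are not independent. The 2 AP-1 matches lie in Ezr, from base 219 of the window, and in Gldn, from base 179. These 2 genes moved in opposite directions after injury in controls, and neither the Nrcam window nor the upstream Nfasc window held any of the 3 motifs. The downstream Nfasc window held 1 SOX match, from base 285. A match is a run of letters and not a measured binding site. The Nrcam and Ezr windows were rich in CpG, with 37 and 38 CpG against a median of 7 over all windows, while the Nfasc windows had 7 and 3.

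The levels of the 9 genes differed widely. Divided by the length of the merged exons, Dag1 was the most abundant member in control contralateral nerves, at 304.7 ± 14.7 CPM per kb (SD, n = 3). It was followed by Gldn at 87.2 ± 4.0, Nfasc at 56.1 ± 4.1, Ezr at 32.4 ± 3.2, and Ank3 at 19.3 ± 0.29 CPM per kb. Nrcam was at 8.75 ± 0.56, Ank2 at 5.23 ± 0.31, Cntnap1 at 1.82 ± 0.12, and Cntn1 at 1.65 ± 0.16 CPM per kb. This order depends on lengths that join the exons of all annotated transcripts, 34838 bases for Ank3 against 4658 for Gldn. Undivided, Ank3 was above Gldn in control contralateral nerves, at means of 671.5 and 406.4 CPM. Of the neighbours in the order per length, only Cntnap1 and Cntn1 overlapped in their ranges over nerves. The order was different in injured control nerves, where Ezr was above Gldn at 176 ± 14.2 CPM per kb, Nrcam was also above Ank3 at 31.4 ± 4.3, and Nfasc was below Ank3 at 7.32 ± 0.83. Cntn1 was the lowest member in all 4 groups. In RaptorKO contralateral nerves, the ranges of Nfasc and Ezr overlapped, as did those of Ank3 and Nrcam. The plot of levels per length shows these orders side by side.

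**Figure D1:**
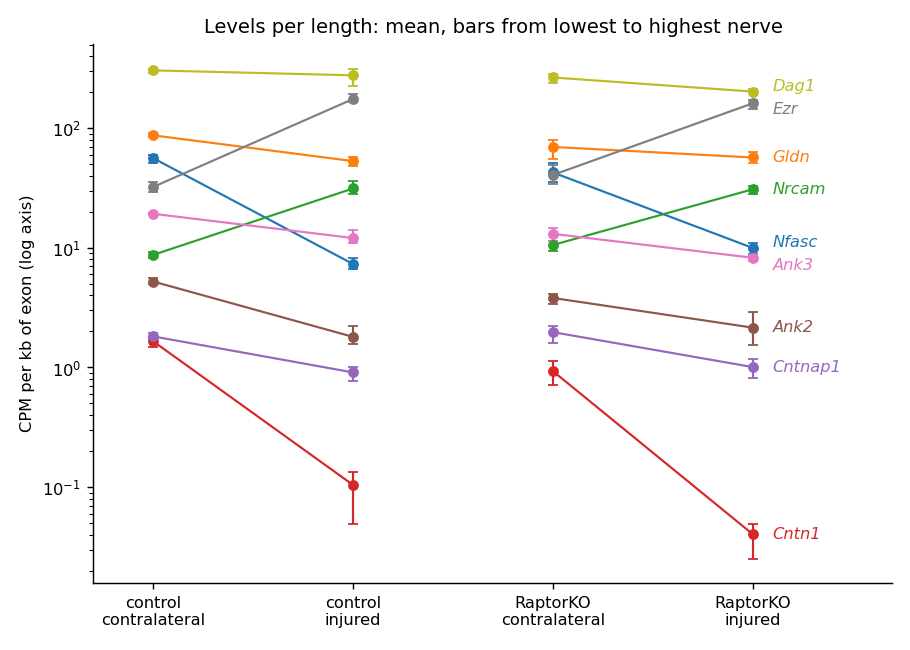
Level of the 9 genes per kb of merged exon (CPM per kb, log axis) in the 4 groups of nerves. Points are group means, bars run from the lowest to the highest nerve, and lines join the 2 groups of 1 genotype; Ezr and Nrcam climb with injury, whereas Nfasc and Cntn1 drop the most.

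To determine how the nodal genes respond to injury when mTOR complex 1 is intact, injured and contralateral control nerves were compared first. Of the 9 members 2 rose and 6 fell, and Dag1 was not called. Nfasc and Cntn1 fell most, Ezr and Nrcam rose, and the ankyrins, Gldn, and Cntnap1 fell less. In this comparison 32.4% of the 12430 genes tested were called higher and 32.9% were called lower. The median log2 fold change was -0.76 over the 9 members and -0.0015 over all genes tested. The plot of levels by nerve gives every value.

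**Figure D2:**
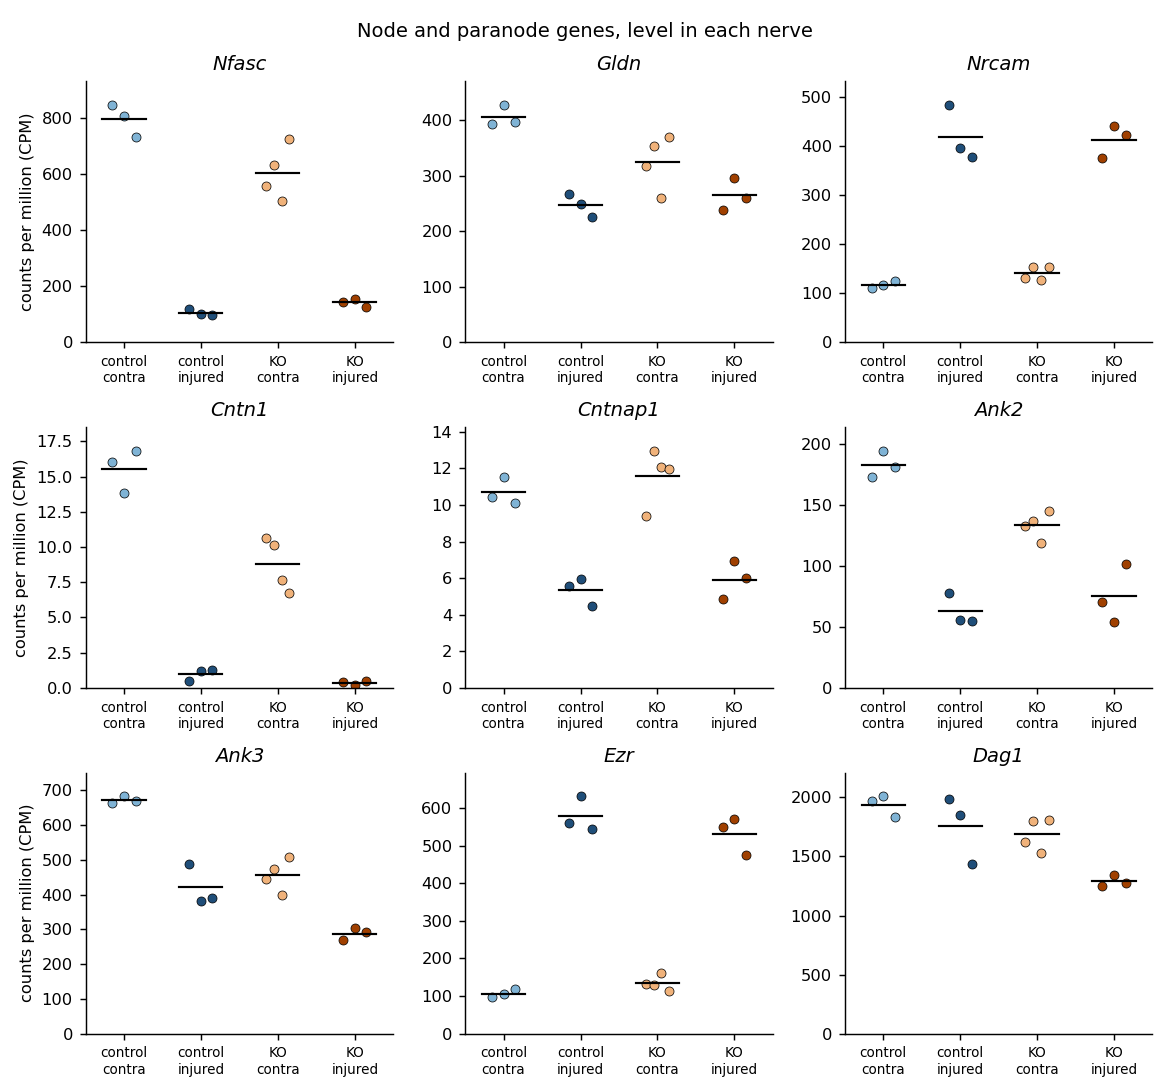
CPM of each gene (vertical axes start at 0) in control contralateral, control injured, RaptorKO contralateral, and RaptorKO injured nerves (KO, RaptorKO; contra, contralateral). Each point is 1 nerve and each line is a group mean; injured and contralateral points are far apart for Nfasc, Nrcam, Cntn1, and Ezr, and mix for Dag1 in controls.

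Nfasc (ENSMUSG00000026442; GRCm38 chromosome 1, 132564690 to 132741797) was at 846, 806, and 731 CPM in the control contralateral nerves and at 117, 98.7, and 95.1 CPM in the injured ones. The groups lay far apart, and injured nerves kept 13% of the contralateral mean. The log2 fold change was -2.99 (SE 0.12; adjusted p = 1.1e-09, from the quasi-likelihood test of edgeR, Benjamini-Hochberg adjusted over all genes tested, like each adjusted p given here). Its glial ligand Gldn (ENSMUSG00000046167; chromosome 9, 54286486 to 54341786) was at 394, 428, and 397 CPM contralaterally and at 267, 249.6, and 226 CPM after crush. These ranges did not overlap either, although the log2 fold change was only -0.76 (SE 0.10; adjusted p = 3.36e-05). Nrcam (ENSMUSG00000020598; chromosome 12, 44328885 to 44601964), which cooperates with gliomedin at the node, went the other way. It was at 109.6, 116, and 124.5 CPM in contralateral nerves and at 484, 396.5, and 377 CPM in injured nerves. Every injured nerve was thus above every contralateral nerve, with a log2 fold change of 1.80 (SE 0.12; adjusted p = 5.79e-08). The nodal adhesion genes thus moved in different directions.

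The 2 axonal paranode genes were sparse. Cntn1 (ENSMUSG00000055022; chromosome 15, 92051165 to 92341967) was at 16.0, 13.9, and 16.9 CPM in contralateral nerves, that is 171 to 177 counts per library. After crush only 5, 13, and 13 counts were left, or 0.46, 1.22, and 1.27 CPM. Its log2 fold change of -4.02 (SE 0.33; adjusted p = 4.5e-07) was the largest of any member in size, and injured nerves kept 6.31% of the contralateral mean. Cntnap1 (ENSMUSG00000017167; chromosome 11, 101170523 to 101190724) was at 10.4, 11.5, and 10.1 CPM contralaterally and at 5.55, 5.98, and 4.50 CPM in injured nerves. It fell by 1.05 on the log2 scale (SE 0.22; adjusted p = 0.00133), with no overlap. Cntnap1 shares 233 exon bases with Plekhh3 on the opposite strand, which had up to 381 counts in a library, and since the strand setting of the counting was not given, reads of the shared bases cannot be told apart. Neuronal markers are few in these nerves: the 8 listed genes summed to 33.5 to 44.4 CPM in control contralateral nerves and to 8.23 to 9.97 CPM in control injured nerves, and the 3 that could be tested (Snap25, Stmn2, and Prph) were all lower after injury. The part of axonal RNA in the fall of Cntn1 and Cntnap1 was not tested.

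Both ankyrins fell. Ank2 (ENSMUSG00000032826; chromosome 3, 126921612 to 127499350) was at 173, 195, and 181 CPM in contralateral nerves against 78.1, 56.0, and 55.2 CPM in injured nerves, a log2 fold change of -1.58 (SE 0.12; adjusted p = 3.38e-07). Ank3 (ENSMUSG00000069601; chromosome 10, 69398773 to 70027438) was at 663, 683, and 668.5 CPM against 488.5, 383, and 392 CPM, a log2 fold change of -0.72 (SE 0.11; adjusted p = 0.000135). Neither gene overlapped between sides, and the injured nerves kept 34.5% of the contralateral mean for Ank2 and 62.7% for Ank3. Of the remaining members, Ezr (ENSMUSG00000052397; chromosome 17, 6738041 to 6782784) rose the most, from 96.8, 105, and 118 CPM to 560, 631, and 543 CPM. The log2 fold change of Ezr was 2.39 (SE 0.11; adjusted p = 4.07e-09), and the injured mean was 543% of the contralateral mean. Dag1 (ENSMUSG00000039952; chromosome 9, 108204634 to 108263958) was at 1972, 2008, and 1831 CPM contralaterally and at 1989, 1853, and 1440 CPM after crush. Its ranges overlapped, and the log2 fold change of -0.19 (SE 0.11; 95% interval -0.44 to 0.06; adjusted p = 0.168) was not called.

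Injury also changed the mix of markers in the nerve. In controls all 8 macrophage markers were called higher, their sum going from 139 to 159 CPM in contralateral nerves to 2444 to 3064 CPM in injured nerves, and all 5 proliferation genes were called higher. All 8 myelin genes were called lower, whereas of 6 SC markers 1 was called higher (Foxd3) and 3 lower. Of the 5 epithelial genes only the adhesion molecule Cdh1 reached the count minimum, and it was called lower, whereas Ezr rose; Epcam, Krt18, and Cldn4 had few counts and Krt8 had none in any library. In RNA of a whole nerve, fewer cells of a type and less RNA per cell cannot be told apart, and the part of these shifts in the members' changes was not tested.

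The same comparison within RaptorKO mice showed 2 members higher and 6 lower, against 30.5% of 12515 tested genes called higher and 28.5% called lower. For each gene the contralateral nerves are given before the injured ones. Nfasc was at 558, 632, 504, and 723 CPM and then at 145, 154, and 125 CPM, a log2 fold change of -2.12 (SE 0.14; adjusted p = 5.39e-07). In RaptorKO mice the injured nerves kept 23.4% of the contralateral Nfasc mean, against 13% in controls. Gldn was at 317, 354, 260, and 369.5 CPM and then at 239, 297, and 261 CPM, so that the groups overlapped and the log2 fold change of -0.32 (SE 0.13; adjusted p = 0.0596) was not called. Without RaptorKO injured replicate 2 (adjusted p = 0.038) or RaptorKO contralateral replicate 3 (adjusted p = 0.00994) Gldn passed. Nrcam was at 132, 153, 126, and 153 CPM and rose to 375, 441, and 422 CPM. Ezr was at 132, 129, 161, and 113 CPM and rose to 549.5, 569.5, and 475.5 CPM. The injured means were 293% of the contralateral mean for Nrcam and 397% for Ezr, against 359% and 543% in controls.

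Cntn1 was again nearly lost, from 10.7, 10.2, 7.65, and 6.73 CPM to 0.45, 0.24, and 0.46 CPM, that is 5, 3, and 5 counts. Cntnap1 was at 9.40, 12.97, 12.1, and 11.9 CPM and fell to 4.84, 6.95, and 5.98 CPM, the injured mean being 51% of the contralateral one against 50% in controls. Ank2 was at 133, 137, 119, and 145 CPM and then at 70.6, 54.0, and 101.6 CPM, the injured nerves being widely spread. Ank3 was at 446, 474.5, 398, and 508 CPM and fell to 268.5, 304, and 292 CPM. Dag1 was at 1624, 1797, 1533, and 1806 CPM and at 1246, 1345, and 1273 CPM after crush. Here its ranges did not overlap and the log2 fold change of -0.42 (SE 0.10; adjusted p = 0.00342) was called, but the difference of the Dag1 injury effect between the genotypes was not called (-0.25 on the log2 scale, 95% interval -0.58 to 0.07; adjusted p = 0.52). The plot of injury effects sets the fold changes of both genotypes next to each other.

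**Figure D3:**
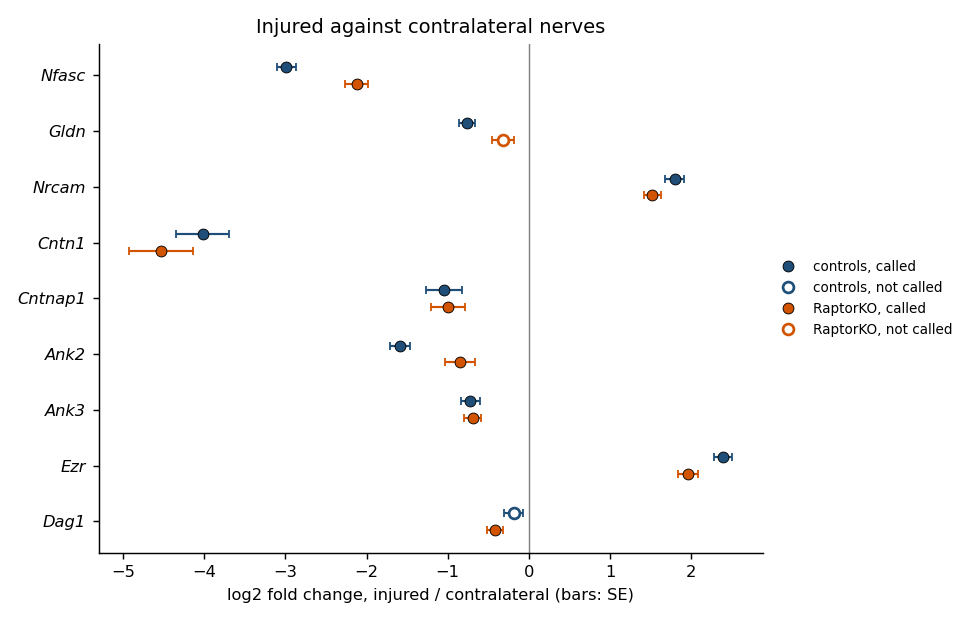
Log2 fold change of injured over contralateral nerves (horizontal axis) for each gene in controls and in RaptorKO mice, with bars of 1 SE. Filled points were called and open points were not; Ezr and Nrcam lie to the right of 0 in both genotypes, and Nfasc lies nearer to 0 in RaptorKO mice than in controls.

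Next, RaptorKO and control contralateral nerves were compared to see whether the nodal genes differ between the genotypes without injury. Both ankyrins and Cntn1, that is 3 members, were lower in RaptorKO nerves and 0 were higher, against 4.49% of 11878 tested genes called higher and 5.68% called lower. Ank3 changed from 663 to 683 CPM in controls to 398 to 508 CPM in RaptorKO nerves, with a log2 fold change of -0.53 (SE 0.09; adjusted p = 0.00549). For Ank2 the ranges were 173 to 195 CPM and 119 to 145 CPM, and the log2 fold change was -0.43 (SE 0.09; adjusted p = 0.0127). Cntn1 was at 13.9 to 16.9 CPM in controls and at 6.73 to 10.7 CPM in RaptorKO nerves, with a log2 fold change of -0.79 (SE 0.19; adjusted p = 0.0241). None of these 3 genes overlapped between the genotypes, and neither did Nfasc, Gldn, Nrcam, or Dag1, which were not called. The share of all tested genes without overlap was not determined in this or any other comparison.

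Ank3 kept its call whichever single library was left out. For Cntn1 the call was lost without control contralateral replicate 1, 2, or 3 (adjusted p = 0.0918, 0.062, and 0.0935) and without RaptorKO contralateral replicate 3 (adjusted p = 0.0525). Ank2 was no longer called without control contralateral replicate 2 (adjusted p = 0.0759), and without that library 1 member was called. The other members did not pass. Nfasc was at 731 to 846 CPM in controls and at 504 to 723 CPM in RaptorKO nerves (log2 fold change -0.37, SE 0.12; adjusted p = 0.0875). Nrcam was at 109.6 to 124.5 and at 126 to 153 CPM (0.30, SE 0.10; adjusted p = 0.0828), and Ezr was at 96.8 to 118 and at 113 to 161 CPM (0.35, SE 0.12; adjusted p = 0.0827). Without RaptorKO contralateral replicate 4, Nfasc and Ezr passed (adjusted p = 0.0163 and 0.036), which makes 5 called members, and without RaptorKO contralateral replicate 3, Nrcam passed (adjusted p = 0.0409). Gldn had a log2 difference of -0.30 (95% interval -0.56 to -0.04; adjusted p = 0.145), Dag1 one of -0.17 (95% interval -0.37 to 0.02; adjusted p = 0.261), and Cntnap1 one of 0.14 (95% interval -0.22 to 0.51; adjusted p = 0.65).

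Marker genes differed between these groups too. Of the 6 SC markers 4 were called lower in RaptorKO contralateral nerves (S100b, Erbb3, and Cdh19 among them), and their summed level was 3582 to 3748 CPM in controls and 1669 to 2341 CPM in RaptorKO nerves. The sum of the 8 myelin genes was 80730 to 89650 CPM in controls and 68210 to 85300 CPM in RaptorKO nerves, with 0 of 8 called. Of the macrophage markers 4 of the 7 tested were called higher, at summed levels of 139 to 159 and 222 to 289.5 CPM, as were 3 of 6 fibroblast and perineurial markers. The part of these markers' shifts in the lower levels of Ank2, Ank3, and Cntn1 was not tested.

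In injured nerves, RaptorKO mice had more Nfasc and less Ank3 than controls. Of 8 members tested, 1 was called higher and 1 lower, against 4.09% of 12040 tested genes called higher and 4.44% called lower. Nfasc was at 145, 154, and 125 CPM in RaptorKO nerves and at 117, 98.7, and 95.1 CPM in control nerves, so that each RaptorKO nerve exceeded each control nerve. Its log2 fold change was 0.47 (SE 0.12; adjusted p = 0.0328). Ank3 was at 268.5, 304, and 292 CPM in RaptorKO nerves and at 488.5, 383, and 392 CPM in controls, again without overlap (log2 fold change -0.53, SE 0.12; adjusted p = 0.0236). Both calls were lost when some of the nerves were left out singly, with log2 fold changes of the same sign. That of Nfasc was lost without control injured replicate 2 or 3 (adjusted p = 0.141 and 0.125). It was also lost without RaptorKO injured replicate 1 or 2 (adjusted p = 0.124 and 0.0695). The log2 fold change of Nfasc was 0.395 to 0.452 in these fits. The call of Ank3 was lost without control injured replicate 1 (log2 fold change -0.417; adjusted p = 0.0832) and without RaptorKO injured replicate 1 (-0.48; adjusted p = 0.111). Without the latter 0 members were called. Over all genes the calls fell too, from 1028 to between 447 and 999 without single libraries.

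Dag1 was at 1246, 1345, and 1273 CPM in RaptorKO injured nerves, below the 1989, 1853, and 1440 CPM of controls, but its log2 fold change of -0.43 (SE 0.13; adjusted p = 0.0676) did not pass. Without control injured replicate 3, the lowest of the control values, it did (adjusted p = 0.0247). Gldn, Nrcam, Cntnap1, Ank2, and Ezr overlapped between genotypes. For Nrcam the log2 difference was -0.0018 with a 95% interval of -0.28 to 0.27, and for Ezr it was -0.10 (-0.36 to 0.16). The interval was -0.14 to 0.38 for Gldn, -0.18 to 0.73 for Ank2, and -0.43 to 0.78 for Cntnap1. Cntn1, at 5, 13, and 13 counts in controls and 5, 3, and 5 counts in RaptorKO nerves, was below the count minimum and was not tested. In the same nerves, 3 of 6 SC markers were called lower in RaptorKO mice, with sums of 2883 to 2961 CPM in controls and 1724 to 2149 CPM in RaptorKO nerves. All 5 proliferation genes were called lower and all 5 endothelial markers higher, and 0 of 8 myelin genes and 0 of 8 macrophage markers were called. Also called higher were 3 of 6 fibroblast and perineurial markers and Stmn2, the 1 neuronal gene tested. Stmn2 was at 6.56 to 7.43 CPM in controls and at 10.6 to 15.5 CPM in RaptorKO nerves. The 8 neuronal genes summed to 8.23 to 9.97 CPM and to 12.3 to 18.0 CPM. The part of these shifts in the levels of Nfasc and Ank3 was not tested.

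**Figure D4:**
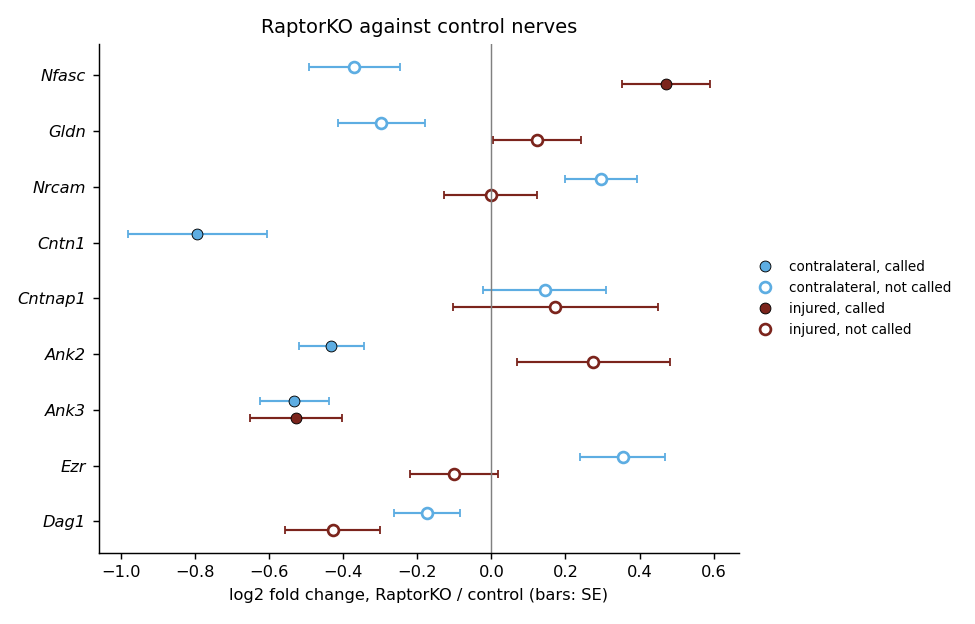
Log2 fold change of RaptorKO over control nerves (horizontal axis) for each gene on the contralateral and the injured side, with bars of 1 SE; filled points were called, and Cntn1 was not tested in injured nerves. Ank3 lies at about the same distance below 0 on both sides, and Nfasc lies below 0 contralaterally and above 0 after injury.

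Nfasc was the 1 member whose injury response differed between the genotypes by a direct test. The fall after crush was smaller in RaptorKO mice by 0.84 on the log2 scale (SE 0.18; adjusted p = 0.0257), against 1.07% of 12851 tested genes called higher and 1.41% called lower for this difference. In controls the 3 injured nerves were at 95.1 to 117 CPM and the 3 contralateral nerves at 731 to 846 CPM, and in RaptorKO mice at 125 to 154 CPM and 504 to 723 CPM, so that the RaptorKO range was lower on the contralateral side and higher on the injured side. Between nerves of the same replicate number, the injured minus contralateral difference in log2 CPM of Nfasc was -2.85, -3.03, and -2.94 in controls and -1.94, -2.03, and -2.01 in RaptorKO mice, without overlap. This call did not survive the loss of several libraries. It was lost without control injured replicate 2 or 3 (adjusted p = 0.0721 and 0.061), RaptorKO injured replicate 1 or 2 (0.0604 and 0.0587), control contralateral replicate 1 or 2 (0.076 and 0.0667), or RaptorKO contralateral replicate 1 (0.0599), with log2 differences of 0.77 to 0.83 in these 7 fits. Without both libraries of control replicate 3 it was lost too (0.85; adjusted p = 0.0833).

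Ank2 had the next largest difference, 0.71 (95% interval 0.18 to 1.24; adjusted p = 0.175), and passed without RaptorKO injured replicate 2 (adjusted p = 0.0471). Gldn had 0.42 (95% interval 0.06 to 0.79; adjusted p = 0.265) and Ezr -0.45 (95% interval -0.82 to -0.09; adjusted p = 0.222). In Nrcam the difference was -0.30 (95% interval -0.63 to 0.04; adjusted p = 0.443). Ank3 differed by 0.0082 (95% interval -0.32 to 0.34; adjusted p = 0.99), and its genotype effect was -0.53 on both sides. Intervals were wide for the sparse genes, -1.63 to 0.56 for Cntn1 and -0.55 to 0.62 for Cntnap1.

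The pathway around these genes was followed with 45 partner genes in 7 lists, of which 36 were tested in each comparison. In controls, injury called 8 higher and 26 lower, against 32.4% and 32.9% of all tested genes. All 10 dystroglycan partners fell, and the largest falls were in Drp2 (log2 fold change -6.52) and Prx (-5.71), which build the complex that holds the myelin sheath to the SC membrane apposed to the basal lamina. Drp2 went from 5057 to 5218 CPM in control contralateral nerves to 48.2 to 66.9 CPM in injured nerves. Dag1, the transmembrane part of the same complex, was not called. The tight junction gene Cldn19 (-5.08), the adhesion molecule gene Cadm3 (-4.47), and the sodium channel subunit Scn4b (-2.43) also fell. Of the 5 nodal channel genes tested 4 fell. Among the relatives of ezrin in the microvilli, moesin (Msn) rose (1.13) and radixin (Rdx) was not called (-0.23), while the 4.1 protein gene Epb41l1 (1.61), the matrix gene Vcan (1.04), and the adhesion molecule L1cam (0.71) rose.

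In RaptorKO mice, injury called 5 partners higher and 25 lower, against 30.5% and 28.5% of all tested genes. Drp2 (-5.65), Prx (-5.59), Cldn19 (-4.93), Cadm3 (-3.56), and Sgcd, a sarcoglycan (-2.74), fell most, and Msn (0.93), Epb41l1 (0.92), Vcan (0.68), and L1cam (0.67) were higher. Between genotypes 7 partners were called in contralateral nerves. The basal lamina genes Lama2 (0.83) and Hspg2 (0.41) were higher in RaptorKO nerves, and Adam22 (-0.69), Chl1 (-0.45), Cadm3 (-0.39), Adam23 (-0.38), and Dmd (-0.35) were lower. In injured nerves Drp2 was higher (0.47), and Adam23 (-1.41), Cadm4 (-0.98), Ncam1 (-0.89), Chl1 (-0.86), and Sgcb (-0.47) were lower. Of the 7 related adhesion molecules tested, 4 were called lower and 0 higher in injured nerves, where L1cam (0.06) and Cadm3 (0.49) were above 0 but not called. In contralateral nerves 4 of the same 7 were called lower and 0 higher. The share of all tested genes called lower was 4.44% in injured and 5.68% in contralateral nerves, and the share called higher was 4.09% and 4.49%. Drp2 was no longer called without control injured replicate 1, 2, or 3 or RaptorKO injured replicate 1 or 2 (adjusted p = 0.106, 0.0544, 0.159, 0.193, and 0.0554), and Sgcb was lost without control injured replicate 2 or 3 or RaptorKO injured replicate 1 (0.0808, 0.0818, and 0.107), while Adam23, Cadm4, Ncam1, and Chl1 kept their calls in each of these fits. Of the contralateral calls, Lama2, Adam22, and Chl1 held without any single library. Hspg2 lost its call without control contralateral replicate 2 or 3 (adjusted p = 0.0907 and 0.0841), and Cadm3 without control contralateral replicate 1 or 2 or RaptorKO contralateral replicate 1 (0.0879, 0.11, and 0.0655). Adam23 and Dmd lost theirs without any one of the control libraries or of RaptorKO contralateral replicates 1 to 3, with adjusted p up to 0.119 and 0.179.

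**Figure D5:**
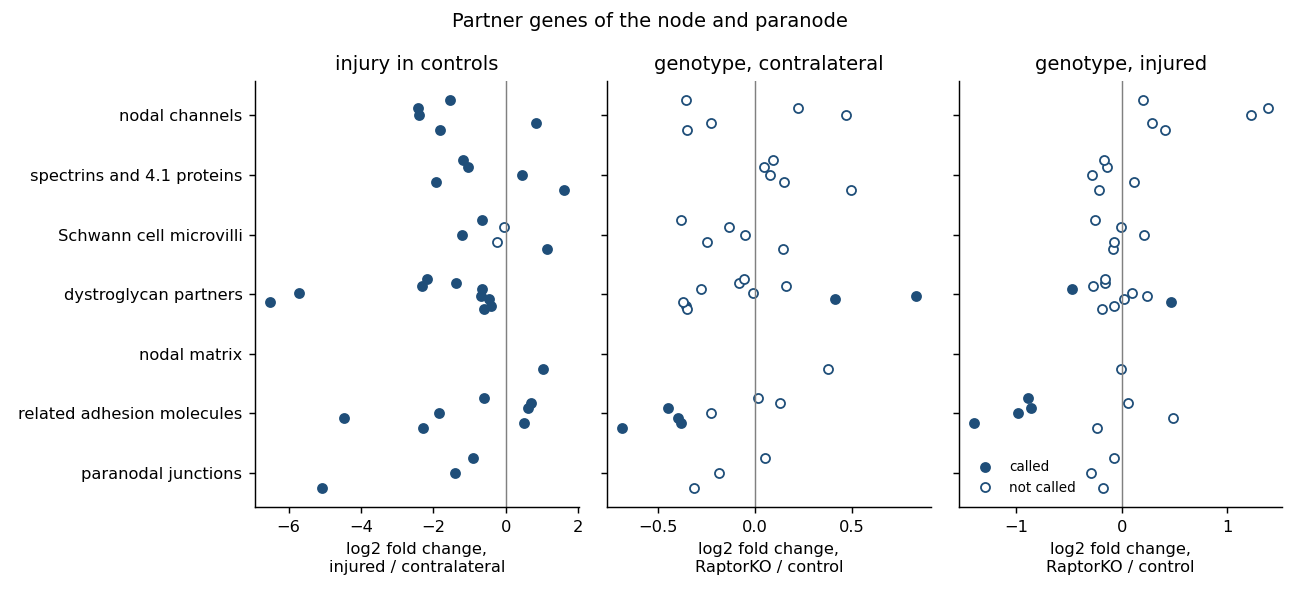
Log2 fold change of the 36 tested partner genes (horizontal axes, scaled separately) by list, for injury in controls and for genotype in contralateral and in injured nerves. Filled points were called; dystroglycan partners all lie left of 0 after injury, and the called related adhesion molecules lie left of 0 in both genotype panels.

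Genes with the most similar pattern over the 4 groups were sought by the distance between group mean log2 CPM differences, each against control contralateral nerves, among 12851 genes. Nfasc was closest to Ndrg2 (distance 0.07) and G0s2 (0.09), Ezr to Vps37b (0.07) and the lysosomal tetraspanin gene Cd63 (0.07), and Nrcam to Pla2g15 (0.09) and Sh3tc1 (0.11). Gldn was closest to Fkbp14 (0.04) and Gm45250 (0.05), Cntnap1 to Fbxo21 (0.04) and Bcam (0.07), and Dag1 to Ankra2 (0.04) and Tmem60 (0.06). Ank2 was closest to Zfp287 (0.10) and Ehd3 (0.10), and Ank3 to Macrod2 (0.08) and Itpk1 (0.13). Cntn1 had no close neighbour, with B3galt2 at 0.41 and Elovl6 at 0.45. Among the members themselves the nearest pairs were Gldn with Cntnap1 (0.56) and Gldn with Dag1 (0.58), and Nrcam was nearest to Ezr (0.79). These distances describe 4 group means and carry no test.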

How the data were processed

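RNA of 13 nerves was sequenced by the authors as single-end reads from stranded TruSeq libraries. The reads were trimmed with Trimmomatic, aligned to GRCm38, and quantified per gene with RSEM 1.2.22, and the deposited expected counts, not scaled for depth, were rounded before testing. Whether counting used the strand is not given in the sources used here. Gene symbols came from GENCODE M21 by Ensembl ID, and promoter windows from RefSeq (GRCm38.p6).

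Groups came from the sample labels. Counts were tested in R 4.3.3 with edgeR 4.0.16 (glmQLFit, glmQLFTest, TMM factors recomputed in each comparison, limma 3.58.1 beneath), keeping genes with 50 counts in 2 libraries of the fit. A call needed a Benjamini-Hochberg adjusted p under 0.05, over all genes tested, and a fold beyond 1.2. For the interaction, all 13 libraries entered 1 fit. CPM used TMM factors over all libraries, and log2 CPM a prior count of 2. Alternatives were DESeq2 1.42.0, the exact test of edgeR (which the paper used), RLE scaling, no count filter, 1 fit of all libraries, a replicate block, and each library left out in turn. Scripts were tested on simulated data. Figures used Python 3.11.15 and matplotlib 3.10.9.

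Named were all 9 members, Rptor, up to 5 called partners with the largest fold in each direction per comparison, and the 2 nearest genes of each member, except for 1 partner that is not reported here. Members and lists were chosen with earlier results of these data known. Other partners and markers that a count singles out were named after their values were seen. The crush was unilateral, the contralateral nerves came from the crushed mice, and the titles number both sides alike, so that within a genotype an equal number was read as 1 mouse. Deviations of equal numbers correlated at -0.024 to 0.305 between the sides. For replicate 1 of each genotype, another number on the contralateral side correlated higher (0.136 against 0.0674 in controls, 0.094 against -0.024 in RaptorKO mice). The main fits treat nerves as independent, and the replicate block is an alternative. Between genotypes, equal numbers are different mice.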

Additional observations from a re-analysis of the deposited data

Results flagged for a closer look

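A direct test of the difference between the genotypes' injury effects singled out Nfasc, whose injury effect was higher in RaptorKO mice by 0.84 on the log2 scale (injury effects of -2.99 in controls and -2.12 in RaptorKO mice). Among the partner genes the same test singled out Cadm3 with a difference of 0.88 (-4.47 and -3.56) and Drp2 with 0.85 (-6.52 and -5.65), both falling less in RaptorKO mice. It also singled out Adam23 with -1.02, which was at 41.6 to 46.4 CPM in control contralateral and 61.3 to 69.7 CPM in control injured nerves, against 32.2 to 34.6 and 21.4 to 26.5 CPM in RaptorKO mice. Ncam1, a neural adhesion molecule, had a difference of -0.90, at 107 to 115.5 and 65.3 to 90.5 CPM in controls and at 96.3 to 119 and 34.6 to 46.5 CPM in RaptorKO mice. Adam23 kept its call without any single library and without both libraries of control replicate 3, where Ncam1 lost its own (adjusted p = 0.0641, quasi-likelihood test of edgeR). Cadm3 lost its call without control injured replicate 2 (0.052), control contralateral replicate 1 or 2 (0.0559 and 0.0612), or both libraries of control replicate 3 (0.0667), and Drp2 without any single library other than RaptorKO contralateral replicate 4 (0.0578 to 0.123), without both libraries of control replicate 3 (0.171), and with RLE scaling (0.0613). The same losses for Nfasc are given above. In no member did the highest or lowest of the 4 RaptorKO contralateral nerves stand apart from the others by Dixon's criterion. Only this group was examined (10 genes, Rptor included), and the groups of 3 nerves were left out.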

How the results depend on the processing

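The calls after injury were the most stable. In controls 8 members were called under all alternatives run, and in RaptorKO mice 8 or 9, Gldn being gained with DESeq2 (adjusted p = 0.0294), in 1 fit of all libraries (0.0271), and in the leave-outs given above. In contralateral nerves the 3 member calls became 6 with DESeq2 (Nfasc, Nrcam, and Ezr gained), 1 in the fit of all libraries (Ank2 and Cntn1 lost, adjusted p = 0.11 and 0.0555), and 6 with the replicate block (Nfasc, Gldn, and Ezr gained, adjusted p = 0.00405, 0.0208, and 0.00756), and ranged from 1 to 5 without single libraries. In injured nerves the 2 calls became 1 with the replicate block (Ank3 at adjusted p = 0.0604) and ranged from 0 to 2 without single libraries, and Dag1 was gained with DESeq2, without the count filter, and in the fit of all libraries (0.0104, 0.0255, and 0.0185). The 1 call of the interaction ranged from 0 to 1 without single libraries and was 0 without both libraries of control replicate 3. RaptorKO contralateral replicate 4 has no counterpart, so under the block it adds nothing to the effects tested. With that library left out of the unblocked contralateral fit, Nfasc and Ezr were gained too, at log2 fold changes of -0.475 and 0.419. With the block these were -0.479 and 0.416. The replicate block changed no other call of a member. With the numbers as mice within a genotype, the block thus left the member calls of both injury comparisons and of the interaction as they were. Across genotypes the block pairs different mice. Deviations of equal numbers correlated at 0.0723, 0.254, and 0.301 between contralateral nerves of the 2 genotypes. Between injured nerves the values were 0.0269, 0.0136, and -0.0492. What equal numbers share across genotypes was not tested. Cntn1, tested in injured nerves without the count filter only, gave a log2 fold change of -1.32 (adjusted p = 0.542).

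Differences close to 0 changed sign in 3 results. That of Nrcam in injured nerves was 0.00101 with DESeq2 and with RLE scaling, 0.0052 without the count filter, 0.00153 with the replicate block, and -0.0681 to 0.104 without single libraries. The interaction of Ank3 was -0.00942 with DESeq2, -0.00962 with RLE scaling, -0.029 without control replicate 3, and -0.0677 to 0.117 without single libraries, and that of Cntnap1 was -0.0322 without control replicate 3 and -0.103 to 0.149 without single libraries. Over all genes the calls moved by more than 1.5 times in the injured nerves without the count filter (1556 against 1028), in the interaction with DESeq2 (598 against 318) and without control replicate 3 (113), and without single libraries (down to 524 of 1208 in contralateral, 447 in injured nerves, and 132 in the interaction). Called partners ranged from 4 to 15 in contralateral nerves, 4 to 9 in injured nerves, and 1 to 8 in the interaction. The cause was not tested. With 3 to 13 counts of Cntn1 per injured nerve, its genotype difference after injury could not be resolved.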
